A study of Mus musculus with 24 samples.

Results

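Ccr2, Mgl2, C1qa and C1qb are 4 genes commonly used as markers of monocytes and macrophages, though other cells can carry some of them. They were chosen by symbol from 38321 gene identifiers counted in each library, and their levels are described here across 2 tissues and 3 hormone groups. The libraries came from wild type female C57BL/6J mice, 11 weeks old at the start, all of which had ligature-induced periodontitis. Sham mice had a sham operation and corn oil vehicle, OVX mice had both ovaries removed and the same vehicle, and OVXE2 mice had both ovaries removed and 1 µg of estradiol benzoate per day under the skin in corn oil. Surgery was on day 0, injections began on day 4, and on day 7 silk ligatures were tied around the second maxillary molar on both sides. On day 14 the gingiva around the maxillary molars was collected, and so was the dentoalveolar complex (DAC), the molars with their bone, freed of soft tissue. Each tissue gave 4 libraries per group, 24 in all. No library without ligature was analysed here, so the hormone groups are compared within ligature-induced inflammation. The libraries are titled biological replicates, but the labels tie neither the tissues nor the groups to single animals.

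Monocytes leave bone marrow and enter inflamed tissue largely through Ccr2, the chemokine receptor that binds Ccl2 and related monocyte chemoattractants. Within tissue they can become macrophages, many of which make C1q, the recognition part of the first complement component, whose chains are encoded by C1qa, C1qb and C1qc. Mgl2 encodes a galactose-type C-type lectin (CD301b) carried by subsets of macrophages and dendritic cells in connective tissue and skin, and it is commonly raised in alternatively activated macrophages. Marrow spaces of the jaw lie within the DAC, and periodontal bone loss is carried out by osteoclasts, which arise from the same myeloid lineage. Estrogen is known to act on bone and on myeloid cells, and ovariectomy is a standard model of its loss.

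All coordinates are on the mouse build GRCm38. Ccr2 (ENSMUSG00000049103) lies on the plus strand at chr9:124101950-124113557. Mgl2 (ENSMUSG00000040950) lies on the plus strand at chr11:70130329-70137550, 18646 bases from its close relative Clec10a. C1qa (ENSMUSG00000036887) at chr4:136895917-136898803 and C1qb (ENSMUSG00000036905) at chr4:136880129-136886187 are both on the minus strand, with C1qc between them. No annotated gene overlaps any of the 4 genes. Of 2205 stretches of 50 bases in Mgl2 transcripts, 12.2% also occur in a Clec10a transcript, whereas C1qa and C1qb shared no such stretch with another gene and Ccr2 shared 1.91%. A read pair lying wholly within shared stretches cannot be assigned to one gene, and how many pairs did so was not tested.

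The promoters are shown because Ccr2, Mgl2 and the C1q genes behaved differently under the same treatment and were all measured as steady-state RNA. RefSeq promoters on GRCm38.p6, from 250 bases before to 50 bases after the start and on the gene's own strand, matched 4 of 6 symbols sought: Ccr2 at chr9:124101933-124102232 (plus strand), Mgl2 at chr11:70130107-70130406 (plus), C1qb at chr4:136886151-136886450 (minus) and C1qc at chr4:136892865-136893164 (minus). Those of C1qa and Clec10a were not matched. Capitals mark matches, on either strand, to GGTCANNNTGACC (the estrogen response element), AGGTCA (its half-site, which overlaps the full element), GAGGAA (the core of the box bound by PU.1, a myeloid transcription factor) or TGCTGA (a half-site of Maf factors).
Ccr2: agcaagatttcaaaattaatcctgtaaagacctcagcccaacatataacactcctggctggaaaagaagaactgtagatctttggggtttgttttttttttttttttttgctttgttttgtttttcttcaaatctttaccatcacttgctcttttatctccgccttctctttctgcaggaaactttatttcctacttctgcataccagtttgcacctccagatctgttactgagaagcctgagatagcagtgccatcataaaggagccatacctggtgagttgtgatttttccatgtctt
Mgl2: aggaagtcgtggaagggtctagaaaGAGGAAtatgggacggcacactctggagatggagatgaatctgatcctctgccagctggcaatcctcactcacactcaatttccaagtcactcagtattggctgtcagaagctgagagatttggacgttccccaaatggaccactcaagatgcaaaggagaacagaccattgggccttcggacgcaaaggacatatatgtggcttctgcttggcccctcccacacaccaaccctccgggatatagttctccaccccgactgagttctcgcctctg
C1qb: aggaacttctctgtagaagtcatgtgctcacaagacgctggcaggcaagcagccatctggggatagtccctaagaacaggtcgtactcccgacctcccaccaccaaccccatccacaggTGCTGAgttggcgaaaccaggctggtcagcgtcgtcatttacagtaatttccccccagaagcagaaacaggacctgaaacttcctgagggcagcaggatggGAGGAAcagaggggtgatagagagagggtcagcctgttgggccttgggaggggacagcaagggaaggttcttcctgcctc
C1qc: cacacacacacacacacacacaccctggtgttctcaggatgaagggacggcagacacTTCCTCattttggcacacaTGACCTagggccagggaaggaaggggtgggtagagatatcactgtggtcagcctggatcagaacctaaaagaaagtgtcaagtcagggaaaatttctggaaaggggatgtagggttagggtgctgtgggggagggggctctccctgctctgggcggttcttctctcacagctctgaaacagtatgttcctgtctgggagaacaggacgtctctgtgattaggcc
The Ccr2 window held none of the 4 motifs, the Mgl2 window held GAGGAA 225 bases before the start, and the C1qb window held GAGGAA 30 and TGCTGA 131 bases before it. The C1qc window held the half-site as TGACCT 174 bases and GAGGAA as TTCCTC 193 bases before the start. Among 32851 mouse promoters of this length, 0.07% held the full element, 16.3% AGGTCA, 28.3% GAGGAA and 19.5% TGCTGA. The starts are those of RefSeq. The Ccr2 window begins at 124101933, just before the annotated gene start at 124101950, so nearly all of it lies within the annotated gene. The C1qc window also lies largely within its gene, which begins at 136893065 on the minus strand. Sequence further upstream of these genes was not searched. A match of letters is a description and does not show binding.

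Gene counts per library were between 18598422 and 26001342 in gingiva and between 14771830 and 29248358 in the DAC. The libraries fell into a higher and a lower set by the share of gene reads on the other strand, 3.38% to 9.03% in all, and both sets held libraries of every group. Within the higher set of the DAC, the OVXE2 libraries were at 5.69%, 6.57% and 5.77%, and the Sham and OVX libraries at 7.63% to 8.81%. A fit within this set therefore does not remove the difference in strand share between OVXE2 and the other groups. In the DAC, OVX replicate 1 carried 14.1% nasal gland transcripts, and Sham replicate 2 was the shallowest and the richest in brain neuron transcripts (0.0442%). These libraries stand apart from the rest, and results below that changed without them are given both ways. Levels are in CPM, the reads of a gene scaled to a common library total with correction for library composition within a tissue, as mean ± SD over 4 libraries. Differences are log2 ratios ± SE from edgeR's quasi-likelihood test, with p-values adjusted over all genes tested in the tissue. Osteoblast and osteocyte markers, summed, had 4475.6 to 9534.7 CPM in the DAC and 31.1 to 102.4 CPM in gingiva, and oral epithelium markers 856.0 to 5220.3 CPM in the DAC and 64143.4 to 94865.5 CPM in gingiva, as the tissue labels say. A gene is said to have risen or fallen where the adjusted p was under 0.05. Where all libraries of a group are said to lie above or below others, this describes the gene named. The share of all genes that do so was not counted.

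In the DAC, ovariectomized mice given estradiol had less Ccr2 and more Mgl2 RNA than mice given vehicle, and their C1qa and C1qb levels overlapped those of both other groups. In gingiva no member passed the test in any comparison. Mgl2 was there about as much higher with estradiol as in the DAC, and Ccr2, C1qa and C1qb had their highest means in the OVX group. In bulk tissue, fewer cells of a type and less RNA per cell cannot be told apart, and this holds for each level below.

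**Figure D1:**
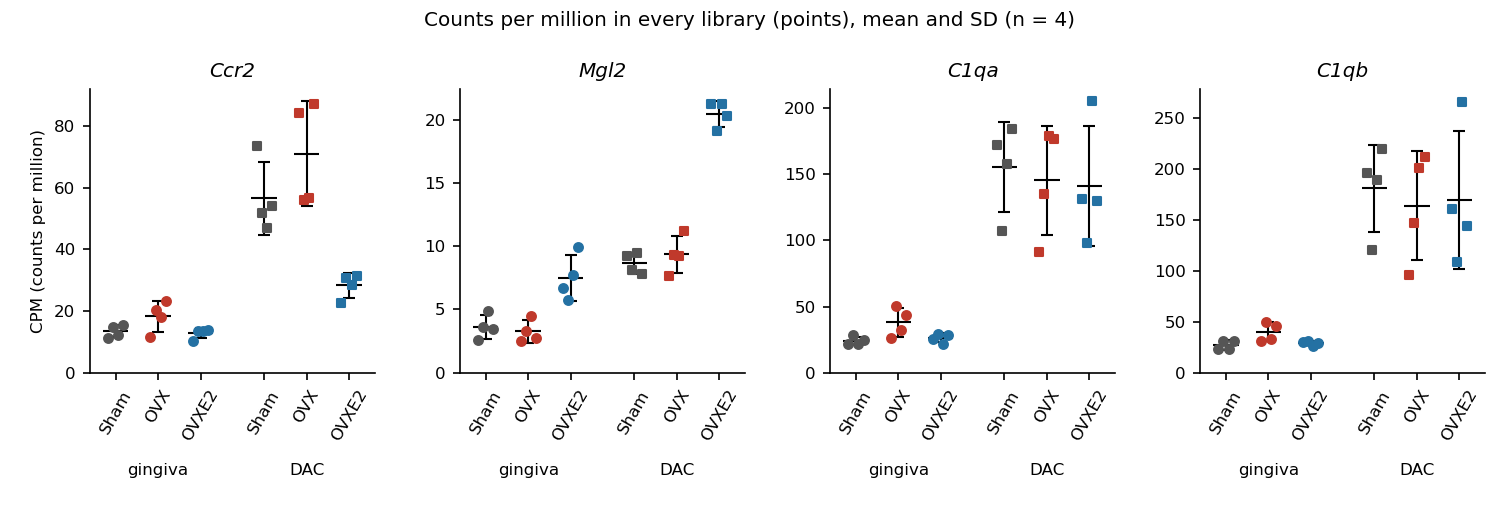
Level of Ccr2, Mgl2, C1qa and C1qb in CPM (vertical axis) in each library, by tissue and group, with points for the 4 libraries and lines for the group mean ± SD. In the DAC, the OVXE2 libraries lie below the others for Ccr2 (22.6 to 31.4 CPM) and above them for Mgl2 (19.1 to 21.2 CPM), and the groups overlap for C1qa and C1qb.

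Ccr2 is the receptor of the set. In the DAC the Sham libraries had 73.6, 51.6, 46.8 and 53.9 CPM, the OVX libraries 84.1, 56.1, 56.6 and 87.2 CPM, and the OVXE2 libraries 22.6, 30.6, 28.5 and 31.4 CPM. Every OVXE2 library lay below every library of the other groups, whereas the Sham and OVX libraries overlapped. The means were 56.5 ± 11.8, 71.0 ± 16.9 and 28.3 ± 3.99 CPM. From OVX to OVXE2, Ccr2 fell by 1.33 ± 0.19 on the log2 scale, a 2.51-fold lower level (95% interval -1.75 to -0.91, edgeR adjusted p = 0.00375). In this comparison 2.13% of the 13617 genes tested passed, 0.676% up and 1.45% down, and 2 of the 4 members did, Ccr2 down and Mgl2 up.

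From Sham to OVXE2, Ccr2 in the DAC fell by 1.00 ± 0.19 on the log2 scale, 2.00-fold (95% interval -1.41 to -0.58, edgeR adjusted p = 0.0315). Here 1.05% of genes passed, 0.389% up and 0.661% down, and again 2 of the 4 members, but both comparisons use the same OVXE2 libraries. The Ccr2 call against Sham rests close to the threshold. It was lost on leaving out Sham replicate 1 (Ccr2 adjusted p = 0.0945), Sham replicate 2 (0.0629), Sham replicate 4 (0.0666) or any one OVXE2 library (0.109, 0.0786, 0.0597 and 0.0765 without replicates 1 to 4). The change stayed between -1.08 and -0.84 in every such fit. Ovariectomy alone gave a Ccr2 difference of 0.33 ± 0.19 (95% interval -0.08 to 0.74, adjusted p = 0.874), and 0.00% of genes passed in that comparison. edgeR gave 437 genes at an unadjusted p under 0.05 for it, and DESeq2 called 10.

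Neighbouring levels of Ccr2 in the DAC, OVX above Sham, did not differ beyond their spread, and OVXE2 was apart from both. The call for Ccr2 in OVXE2 against OVX held without any single library (adjusted p from 0.00323 to 0.0143). It was lost without the 4 libraries richest in brain neuron transcripts (Sham 2 and 4, OVX 1, OVXE2 2), at a Ccr2 change of -1.28 and an adjusted p of 0.0657. It was also lost within the higher other-strand set, which holds 3 Sham, 2 OVX and 3 OVXE2 libraries, at a Ccr2 change of -1.40 and an adjusted p of 0.0958. The call for Ccr2 in OVXE2 against Sham was lost in both of these subsets (adjusted p = 0.227 and 0.195) and also without OVX replicate 1 and Sham replicate 2 together (0.0621). The lower set holds 1 Sham and 1 OVXE2 library of the DAC, too few for a test.

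In gingiva Ccr2 was lower than in the DAC, at 11.3, 14.7, 12.2 and 15.4 CPM in Sham, 11.5, 20.3, 17.9 and 23.3 CPM in OVX, and 10.4, 13.6, 13.5 and 14.0 CPM in OVXE2. OVX replicates 2, 3 and 4 exceeded all Sham and OVXE2 libraries, and OVX replicate 1 lay among the Sham libraries, so the groups overlapped. The OVX minus Sham difference of Ccr2 was 0.44 ± 0.19 (unadjusted p = 0.0370, edgeR adjusted p = 0.405) and the OVXE2 minus OVX difference -0.50 ± 0.19 (unadjusted p = 0.0208, adjusted p = 0.311). OVXE2 minus Sham was -0.06 (adjusted p = 0.962). The difference between tissues in the OVXE2 minus OVX effect on Ccr2 was -0.83 (95% interval -1.41 to -0.25, unadjusted p = 0.00744) and did not pass over all genes (adjusted p = 0.401). The same held for OVXE2 minus Sham, at -0.91 (95% interval -1.49 to -0.32, unadjusted p = 0.00407, adjusted p = 0.376).

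None of the gingival comparisons had a gene past the threshold with edgeR: 0.00% of 12680 genes passed in OVX minus Sham, in OVXE2 minus OVX and in OVXE2 minus Sham. At an unadjusted p under 0.05 edgeR gave 1530, 1766 and 939 genes in that order, and DESeq2 called 44, 92 and 8. In the tests of effect differences between tissues, 0.00%, 0.190% and 0.0633% of 14209 genes passed for OVX minus Sham, OVXE2 minus OVX and OVXE2 minus Sham, and no member was among them. edgeR gave 1212 genes at an unadjusted p under 0.05 for the first of these.

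**Figure D2:**
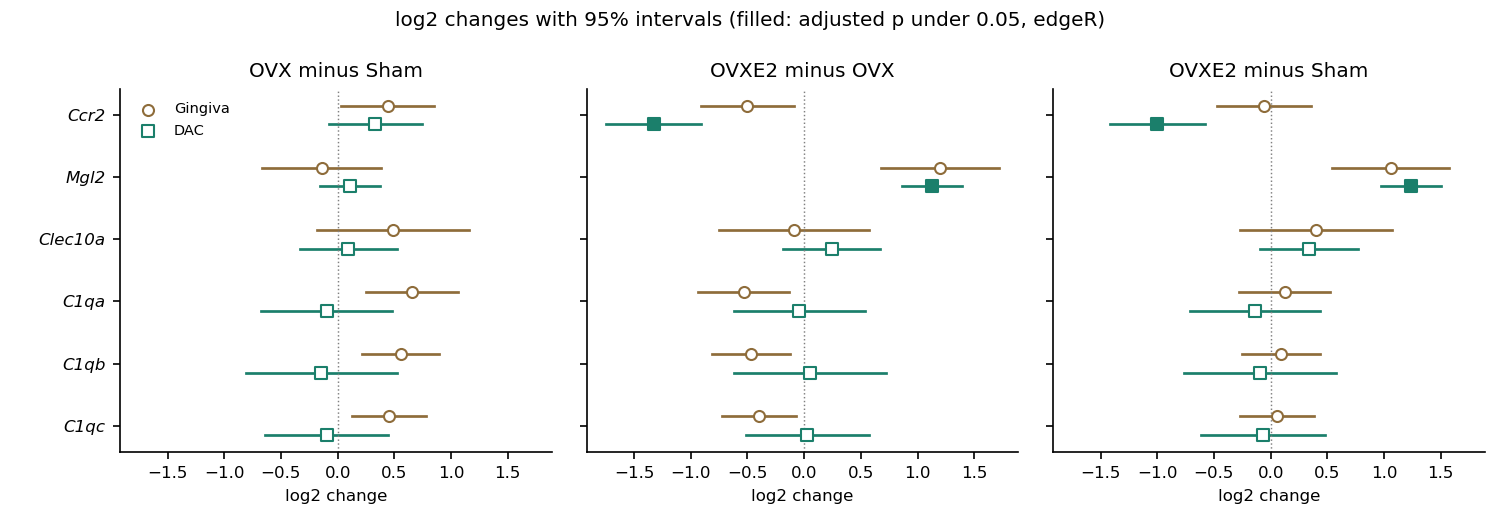
Log2 change of each member, of Clec10a and of C1qc (horizontal axis) with its 95% interval from edgeR, for the 3 group comparisons in gingiva and in the DAC, with filled points for an adjusted p under 0.05. In the DAC Ccr2 lies at -1.33 and Mgl2 at 1.13 for OVXE2 minus OVX, and the C1qa and C1qb intervals include 0 there.

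Chemokines listed here as ligands of Ccr2 (Ccl2, Ccl7, Ccl8 and Ccl12) were tested as a list of 4, and none passed in any group comparison. Binding to Ccr2 was not measured for any of them. In the DAC, OVXE2 minus OVX, 1 of 4 was higher and 3 were lower, with a median of -0.33 against 0.02 over all genes. Ccl2, the main monocyte chemoattractant, had 17.8 ± 4.04 CPM in OVX and 14.5 ± 4.23 in OVXE2 (log2 difference -0.30, adjusted p = 0.814). Ccl8 gave -0.97 (95% interval -1.81 to -0.14, adjusted p = 0.353), Ccl7 -0.36 and Ccl12 0.11. The related receptor Ccr1 was nearly level, at 90.7 CPM in OVX and 91.0 CPM in OVXE2 DAC.

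Of the other chemokine receptors of myeloid cells, 1 of 7 fell in the DAC from OVX to OVXE2: Cxcr4, which holds immature leukocytes in marrow, went from 104.2 ± 10.2 to 64.9 ± 9.09 CPM (log2 -0.68 ± 0.10, adjusted p = 0.00375). That call was lost without the 4 libraries richest in brain neuron transcripts.

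Mgl2 is the lectin of the set, and it moved the opposite way. In the DAC it had 9.25, 8.08, 9.47 and 7.84 CPM in Sham, 7.66, 9.34, 9.20 and 11.2 CPM in OVX, and 21.2, 19.1, 21.2 and 20.3 CPM in OVXE2. The OVXE2 libraries lay together above all others, and the Sham and OVX libraries overlapped. Mgl2 rose by 1.13 ± 0.12 on the log2 scale from OVX to OVXE2, 2.19-fold (95% interval 0.86 to 1.39, edgeR adjusted p = 0.000594). Against Sham it rose by 1.24 ± 0.12, 2.36-fold (95% interval 0.97 to 1.51, adjusted p = 0.000601). The difference of OVX from Sham was 0.11 (95% interval -0.15 to 0.38, adjusted p = 0.874).

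Both DAC calls for Mgl2 held without any single library, with adjusted p from 0.000642 to 0.00380 against OVX and from 0.000545 to 0.00343 against Sham. Within the higher other-strand set, Mgl2 in OVXE2 against OVX was 1.00 at an adjusted p of 0.0616, so that no member passed there. Its rise against Sham passed in every alternative run, at an adjusted p of 0.0338 or less.

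In gingiva Mgl2 was a low-level gene, with 58 to 250 reads per library. It had 2.55, 3.62, 4.85 and 3.47 CPM in Sham, 2.50, 3.29, 4.52 and 2.78 CPM in OVX, and 6.66, 5.72, 7.72 and 9.95 CPM in OVXE2. Every OVXE2 library again exceeded every library of the other groups. The OVXE2 minus OVX difference of Mgl2 was 1.20 ± 0.24, 2.30-fold (95% interval 0.68 to 1.72, unadjusted p = 0.000269), and the edgeR adjusted p was 0.200. For OVXE2 minus Sham the difference was 1.06 ± 0.24, 2.08-fold (95% interval 0.54 to 1.57, unadjusted p = 0.000709, adjusted p = 0.630). OVX minus Sham was -0.14 (adjusted p = 0.838).

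The size of the Mgl2 difference in gingiva was near that in the DAC: the difference between tissues was -0.07 for OVXE2 minus OVX (95% interval -0.62 to 0.49, adjusted p = 0.967) and 0.21 for OVXE2 minus Sham (adjusted p = 0.883). These intervals do not show that the effects are alike. The gingival result depended on the tool and on 1 library. DESeq2 called Mgl2 in both gingival comparisons (1.21 at an adjusted p of 0.00196 against OVX, and 1.06 at 0.0474 against Sham). Without OVX replicate 3, edgeR called it against OVX (1.40, adjusted p = 0.0463).

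Clec10a, the neighbouring gene for a related galactose-type lectin, did not follow Mgl2 past the test. Its DAC libraries had 7.64, 5.32, 5.78 and 7.79 CPM in Sham, 5.79, 5.73, 7.89 and 8.94 in OVX, and 7.03, 8.71, 10.1 and 7.82 in OVXE2, with overlap between all groups. The OVXE2 minus OVX difference of Clec10a was 0.25 ± 0.20 in the DAC (95% interval -0.18 to 0.67, adjusted p = 0.869) and -0.09 in gingiva (95% interval -0.75 to 0.57, adjusted p = 0.924). Per kilobase, the ratio of Mgl2 to Clec10a in the DAC was 1.86 ± 0.399 in Sham, 1.86 ± 0.278 in OVX and 3.43 ± 0.582 in OVXE2. The OVXE2 ratios, 2.92 to 4.18, lay above all others. In gingiva the Mgl2 to Clec10a ratios of OVXE2 (3.38 to 4.44) met those of Sham (1.92 to 3.40) and lay above those of OVX (1.08 to 2.97).

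**Figure D3:**
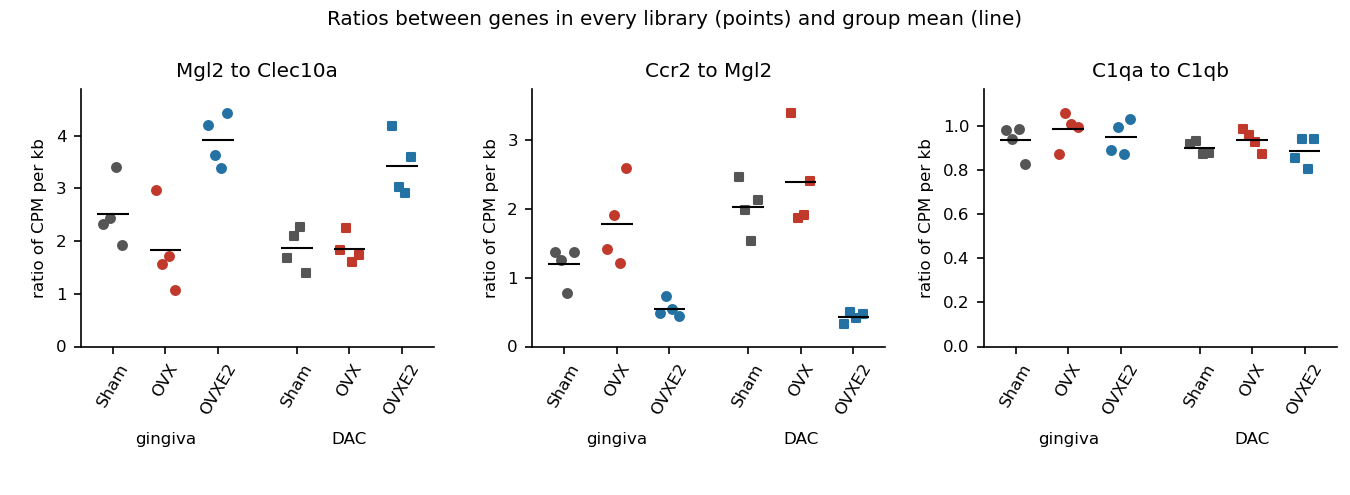
Ratio of levels per kilobase of exon (vertical axis) of Mgl2 to Clec10a, Ccr2 to Mgl2 and C1qa to C1qb in each library by tissue and group, with points for libraries and lines for group means. In the DAC the OVXE2 libraries lie above the others for Mgl2 to Clec10a (2.92 to 4.18) and below them for Ccr2 to Mgl2 (0.330 to 0.497), while C1qa to C1qb stays between 0.804 and 1.06 in all 24 libraries.

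Mgl2 was the exception within the C-type lectin and alternative activation list, of which 11 genes were tested in the DAC. From OVX to OVXE2, 1 rose (Mgl2), 2 fell and 8 of 11 were lower in all, with a median of -0.75 against 0.02 over all genes. The genes that fell were Cd209a, a lectin of monocyte-derived and dendritic cells (7.25 ± 0.667 to 2.06 ± 0.854 CPM, log2 -1.82 ± 0.30, adjusted p = 0.00844), and Cd209g (log2 -1.22, adjusted p = 0.0352, at 0.757 and 0.322 CPM). Both were lost without the 4 libraries richest in brain neuron transcripts and within the higher other-strand set. Ccl17, a chemokine made by alternatively activated macrophages and dendritic cells, fell with Cd209a from Sham to OVXE2 (Ccl17 log2 -2.46, adjusted p = 0.0429). In gingiva Cd209a was also lower in OVXE2 than in OVX (log2 -1.32), without passing (adjusted p = 0.144).

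Conventional dendritic cells, some of which carry Mgl2, were represented by 9 tested genes. From OVX to OVXE2 in the DAC, 4 of 9 fell and 8 of 9 were lower, with a median of -0.81. Ccr7, the receptor that guides dendritic cells to lymph nodes, fell by 1.89 on the log2 scale (7.90 ± 2.25 to 2.13 ± 0.618 CPM, adjusted p = 0.00576). Cd209a, shared with the lectin list, and Flt3, the growth factor receptor of dendritic cell precursors (-1.05, adjusted p = 0.0104), fell with it. All 4 calls were lost without the libraries richest in brain neuron transcripts and within the higher other-strand set, where the medians were -0.92 and -0.99.

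C1qa and C1qb encode chains of the same protein. In the DAC, C1qa had 172.1, 107.2, 157.4 and 184.3 CPM in Sham, 90.8, 134.6, 178.4 and 176.7 CPM in OVX, and 131.0, 98.2, 204.8 and 130.0 CPM in OVXE2. C1qb had 195.9, 120.4, 189.3 and 219.6 CPM in Sham, 96.5, 147.0, 201.3 and 211.9 CPM in OVX, and 160.5, 109.1, 266.4 and 144.5 CPM in OVXE2. The groups overlapped throughout, and for both genes the highest library was OVXE2 replicate 3 and the lowest OVX replicate 1, which is the library rich in nasal gland transcripts.

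No group comparison of C1qa or C1qb in the DAC passed. OVXE2 minus OVX was -0.04 for C1qa (95% interval -0.62 to 0.53, adjusted p = 0.998) and 0.05 for C1qb (95% interval -0.62 to 0.72, adjusted p = 0.997). OVX minus Sham was -0.10 for C1qa (95% interval -0.67 to 0.48) and -0.14 for C1qb. The intervals of C1qa and C1qb therefore exclude changes of the size found for Ccr2 and Mgl2, but not smaller ones. C1qc, the remaining chain, gave 0.03 for OVXE2 minus OVX (95% interval -0.52 to 0.57).

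In gingiva the C1q genes had their highest means in OVX. C1qa had 21.7, 28.4, 22 and 24.6 CPM in Sham, 26, 50.4, 32.3 and 43.9 CPM in OVX, and 25.5, 29.5, 21.8 and 28.6 CPM in OVXE2. C1qb had 23.2, 31.6, 23.3 and 31.1 CPM in Sham, 31.1, 49.8, 33.6 and 46.2 CPM in OVX, and 30, 31.0, 26.1 and 29.1 CPM in OVXE2. OVX replicates 2 and 4 were highest for both genes, OVX replicate 1 lay among the Sham libraries, and only C1qb in OVX and OVXE2 did not overlap, by a margin of 31.1 against 31.0 CPM. Nasal gland markers in gingiva, summed, were 3012.0 to 11322.7 CPM in Sham, 799.1 to 4030.3 in OVX and 2091.4 to 8797.8 in OVXE2. Fibroblast markers, summed, were 2499.1 to 4407.7, 3340.8 to 6756.8 and 2742.7 to 5447.3 CPM in the same order. Over the 12 libraries and across groups, C1qa had an r of -0.667 with the nasal gland sum and 0.715 with the fibroblast sum. Their part in the C1q levels was not tested.

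The gingival OVX minus Sham difference was 0.66 for C1qa (95% interval 0.25 to 1.06, unadjusted p = 0.00410) and 0.56 ± 0.16 for C1qb (95% interval 0.21 to 0.90, unadjusted p = 0.00402), each at an edgeR adjusted p of 0.376. OVXE2 minus OVX was -0.53 for C1qa (unadjusted p = 0.0137, adjusted p = 0.305) and -0.47 for C1qb (unadjusted p = 0.0113, adjusted p = 0.304). C1qc differed by 0.45 and -0.40 in these comparisons. The difference between tissues in the OVX minus Sham effect was -0.73 for C1qa (95% interval -1.40 to -0.06, unadjusted p = 0.0350) and -0.67 for C1qb (unadjusted p = 0.0653), both at an adjusted p of 0.575.

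The list of the C1 complex and the classical pathway had 6 tested genes, the C1q genes C1qa, C1qb and C1qc among them, beside C1ra, C1s1 and Serping1, which encodes the C1 inhibitor. In gingiva 6 of 6 were higher in OVX than in Sham (median 0.42 against 0.01 over all genes) and 6 of 6 were lower in OVXE2 than in OVX (median -0.36), and none passed. OVX minus Sham was 0.37 for C1ra, 0.38 for C1s1 and 0.29 for Serping1 (adjusted p = 0.498, 0.414 and 0.628). In the DAC, OVXE2 minus OVX, 2 of the 6 were higher and 4 lower (median -0.04), and none passed. C1ra and C1s1, the proteases that C1q activates, were at 184.5 ± 23.7 and 351.1 ± 42.2 CPM in OVX DAC and at 167.1 ± 24.8 and 297.7 ± 15.1 CPM in OVXE2. Proteins that bind C1q were likewise without a call in the DAC (4 of 6 higher, median 0.09).

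The chains of C1q moved together from library to library. Over the 12 DAC libraries, Pearson's r of log2 CPM was 0.991 between C1qa and C1qb and 0.986 between C1qb and C1qc, and it was 0.962 and 0.947 over the 12 gingival libraries. Leaving out the 2 libraries farthest from the median gave 0.982 for C1qa and C1qb in the DAC and 0.850 in gingiva. These values describe 12 libraries that share their depth with all genes measured in them. Per kilobase, C1qa was 0.900, 0.936 and 0.885 of C1qb in Sham, OVX and OVXE2 DAC, and C1qc was between 0.339 and 0.385 of C1qb in every tissue and group. The size of these ratios depends on the annotated exon lengths, 1931 bases for C1qc and 1088 for C1qb.

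C1qb and Ccr2 were related differently in the tissues. In gingiva r was 0.827, or 0.520 without OVX replicates 2 and 4, and the r within groups was 0.738. In the DAC it was -0.03 over all libraries, 0.099 without OVX replicate 1 and OVXE2 replicate 2, and -0.098 within groups. Mgl2 and Ccr2 gave -0.84 over the DAC libraries and 0.026 within groups, so that the relation there is the difference between OVXE2 and the other groups. In gingiva r between Mgl2 and Ccr2 was -0.25.

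**Figure D4:**
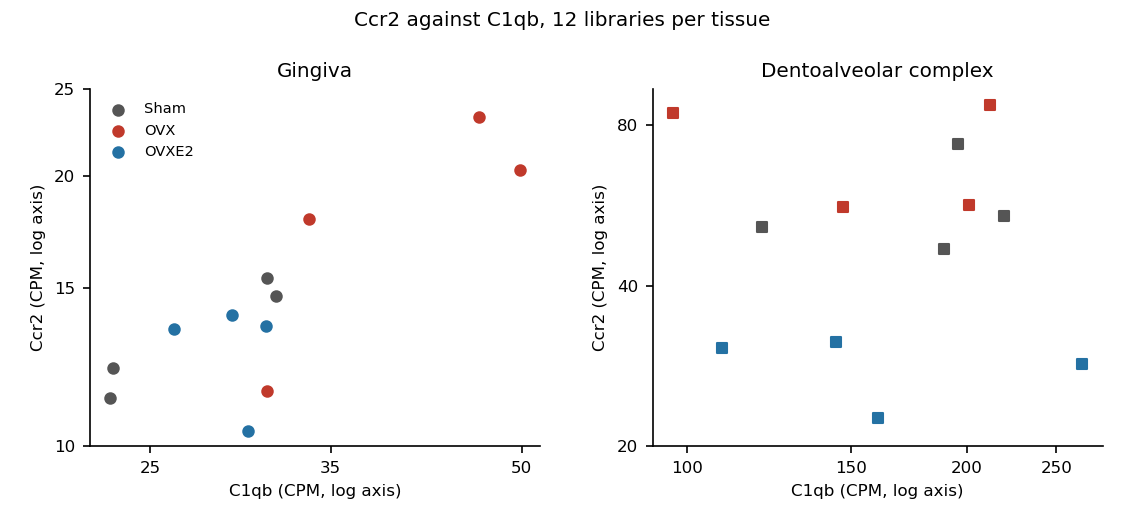
Ccr2 (vertical axis) against C1qb (horizontal axis), both in CPM on log axes, with 1 point for each of 12 libraries per tissue, by group. In gingiva the points rise together (r = 0.827 of the log2 values), and in the DAC they do not (r = -0.03), the OVXE2 libraries lying low in Ccr2 over the whole range of C1qb.

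All 4 members were higher in the DAC than in gingiva in each group, and every DAC library lay above every gingival library of the same group. How many of all genes separate the tissues in this way was not counted. On a common scaling of both tissues, Ccr2 was 3.78-fold higher in the DAC in Sham, 3.58-fold in OVX and 2.02-fold in OVXE2 (adjusted p from 2.78e-08 to 0.000127). Mgl2 was 2.16-, 2.62- and 2.50-fold higher. C1qa was 5.76-, 3.48- and 4.88-fold higher and C1qb 5.96-, 3.74- and 5.34-fold. All 12 of these differences passed, where 39.7% of 14209 genes rose from gingiva to DAC in Sham, 38.1% in OVX and 38.0% in OVXE2, so a call alone separates the members little from other genes.

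Compared per kilobase of exon, C1qb and C1qa led in both tissues. In Sham DAC the order was C1qb (156.3 ± 36.1 CPM per kilobase), C1qa (140.1 ± 30), Ccr2 (7.85 ± 1.65) and Mgl2 (3.88 ± 0.357). The spreads of C1qa and C1qb between libraries overlapped, but within each Sham DAC library C1qa was 0.870 to 0.932 of C1qb. Both lay far above the other genes. In OVXE2 DAC the lower pair changed places per kilobase, with Mgl2 at 9.43 ± 0.467 and Ccr2 at 4.04 ± 0.573 CPM per kilobase. In CPM without division by length, Ccr2 stayed above Mgl2 in each OVXE2 DAC library. The lengths join all annotated exons of a gene, 6760 bases for Ccr2 and 2094 for Mgl2. Which transcripts were expressed was not tested, so the order of these genes depends on the annotation. The per-kilobase ratio of Ccr2 to Mgl2 was 1.53 to 2.46 in the Sham DAC libraries, 1.86 to 3.40 in OVX and 0.330 to 0.497 in OVXE2. In gingiva it was 0.780 to 1.37, 1.22 to 2.59 and 0.436 to 0.737, so that the OVXE2 libraries lay below the others in both tissues.

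Against the mean of C1qa and C1qb per kilobase, Ccr2 in the DAC was 0.0548 in Sham, 0.0805 in OVX and 0.0315 in OVXE2, and Mgl2 was 0.0273, 0.0323 and 0.0722. In gingiva the Ccr2 ratio was nearly level (0.0822, 0.0734 and 0.0738), and the Mgl2 ratio was 0.0729, 0.0447 and 0.139. The higher gingival Ccr2 of the OVX group was thus matched by the C1q genes, whereas the lower DAC Ccr2 of the OVXE2 group was not.

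The genes most like each member over the 12 libraries of a tissue were named from all tested genes with a mean log2 CPM of at least 1, which were 10754 in the DAC and 10077 in gingiva. In the DAC, Ccr2 was most like Sp140 (r = 0.961), Cytip, Cnr2, Susd1 and Pik3cd (0.953). Mgl2 was most like Shox2 (0.959), Fam78b, Whrn, Colgalt2 and Rsrc1 (0.943), but within groups these r were 0.266 to 0.428. C1qa and C1qb were most like each other and C1qc, followed by Vamp5 (0.969) and Rarres2 (0.966) for C1qa and by Nnmt (0.971) and Vkorc1 (0.969) for C1qb.

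In gingiva, Ccr2 was most like Clec4a1 (r = 0.942), Ccn2, Gpr183, Rassf2 and Cdca7 (0.898), and Mgl2 was most like Dcaf6 (0.920), Slc41a3, Tspan12, Slc16a10 and Armcx3 (0.900). C1qa was most like C1qb, C1qc, Lyz2 (0.919), Vim and Clec4a2 (both 0.915). For C1qb the list was C1qa, C1qc, Tnfaip8l2 (0.944), Gm12918 and Arl6ip5 (0.898). Beside C1qc and the members themselves, no gene was named for the same member in both tissues.

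Lists of monocyte and macrophage genes give the setting of these changes. Of classical monocyte genes, 4 of 8 were listed and tested. In the DAC from OVX to OVXE2, 4 of 4 were lower (median -0.76) and 1 fell: Plac8, abundant in inflammatory monocytes, went from 104.0 ± 13.1 to 39.5 ± 4.11 CPM (log2 -1.40 ± 0.12, adjusted p = 0.000143). Plac8 fell against Sham too (-1.16, adjusted p = 0.000858), and its fall against OVX passed also without the libraries that stand apart and within the higher other-strand set. Of 3 non-classical monocyte genes, Ace rose (0.41, adjusted p = 0.0104) and Spn fell (-0.98, adjusted p = 0.00889).

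None of 8 macrophage identity genes passed (2 higher, 6 lower, median -0.18), the smallest p belonging to Lyz2, the lysozyme gene (-0.79, adjusted p = 0.103), and to Itgam, which encodes CD11b (-0.53, adjusted p = 0.190). None of 10 genes of tissue-resident macrophages passed either (4 higher, 6 lower, median -0.02). Their smallest p were for Timd4 (-1.09, adjusted p = 0.136) and the scavenger receptor Stab1 (0.30, adjusted p = 0.175). Of 10 growth factors, receptors and transcription factors of the lineage, Irf8, needed for monocyte and dendritic cell development, fell (55.0 ± 6.40 to 31.5 ± 2.31 CPM, log2 -0.81, adjusted p = 0.0108), with 5 higher and 5 lower in all. The Irf8 and Ace calls were lost without the 4 libraries richest in brain neuron transcripts, and those of Irf8, Ace and Spn within the higher other-strand set. Over the 12 DAC libraries and across groups, Ccr2 had an r of 0.793 with the summed classical monocyte genes and 0.725 with macrophage identity. It had -0.141 with resident macrophages and 0.877 with conventional dendritic cells. For Mgl2 these r were -0.736, -0.662, 0.108 and -0.675. Which cells carried the RNA of Ccr2 and Mgl2 was not tested. In gingiva no gene of any list passed with edgeR.

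**Figure D5:**
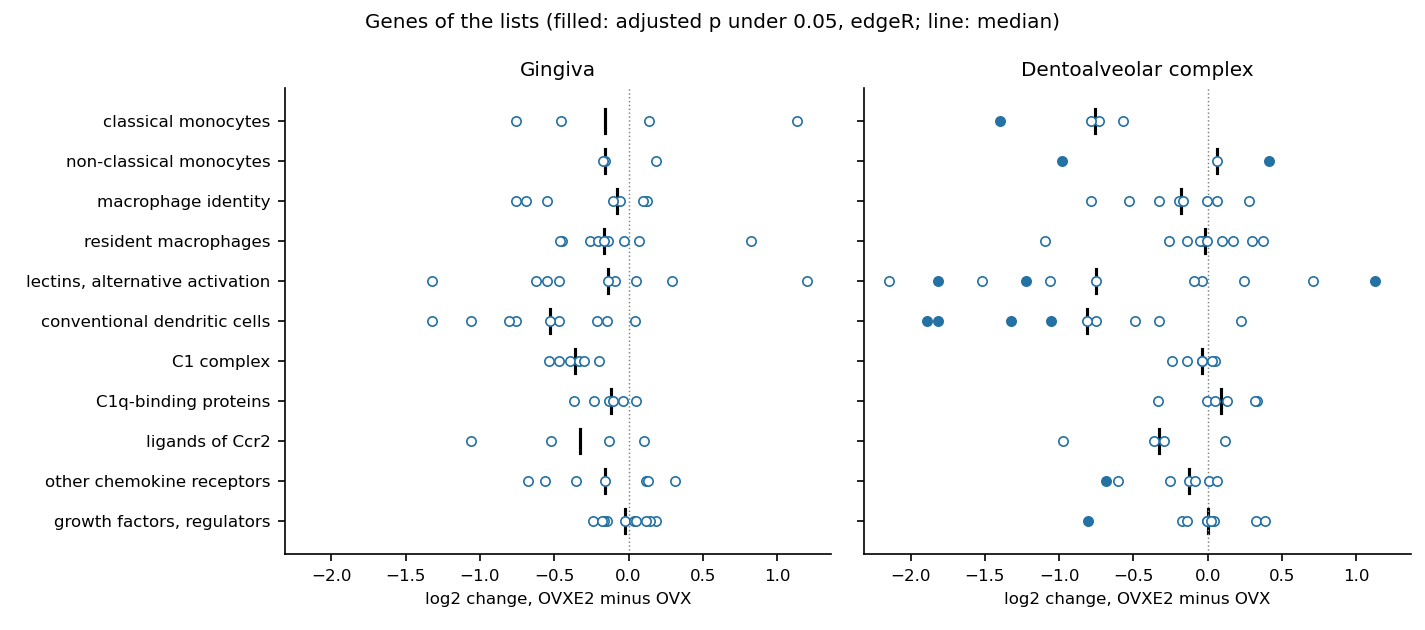
Log2 change from OVX to OVXE2 (horizontal axis) of each tested gene of the monocyte, macrophage, complement and chemokine lists, in gingiva and the DAC, with filled points for an adjusted p under 0.05 and a line at the list median. In the DAC the dendritic cell, lectin and classical monocyte genes have medians of -0.81, -0.75 and -0.76, and Mgl2 at 1.13 is the rightmost lectin.

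Markers of other cells moved with Ccr2 and Mgl2 in the DAC. From OVX to OVXE2, 6 of 7 B cell precursor markers fell (median -2.98), and their summed level was 175.8 to 231.7 CPM in OVX, 94.8 to 136.0 in Sham and 47.6 to 65.7 in OVXE2. Immature neutrophil markers fell in 8 of 8 (median -1.77), with sums of 2878.7 to 4103.8 CPM in OVX, 1923.9 to 3897.7 in Sham and 950.8 to 1582.5 in OVXE2. Of T and NK cell markers, cells that can also carry Ccr2, 3 of 7 fell (median -1.59), with sums of 31.7 to 48.8, 20.5 to 41.4 and 10.6 to 15.2 CPM in the same order.

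Endothelial markers rose in 4 of 5 (median 0.52; sums of 496.5 to 593.4 CPM in OVX, 570.4 to 622.2 in Sham and 672.0 to 814.7 in OVXE2). Osteoblast and osteocyte markers, summed, were 4475.6 to 6644.7 CPM in OVX, 5954.0 to 6805.4 in Sham and 7349.5 to 9534.7 in OVXE2, and 1 of 5 rose from OVX to OVXE2 (Ibsp; median 0.19). Of mast cell markers 2 of 3 fell (Mcpt4 and Cpa3; median -1.25), with sums of 17.1 to 26.2 CPM in OVX, 12.4 to 20.4 in Sham and 6.85 to 14.0 in OVXE2. Over the 12 DAC libraries, the r of Ccr2 with the T and NK sum was 0.932, with the B cell precursor sum 0.883 and with the immature neutrophil sum 0.860. For Mgl2 the r with the endothelial sum was 0.849 and with the B cell precursor sum -0.84. The osteoblast sum gave -0.78 with Ccr2 and 0.74 with Mgl2, and the mast cell sum 0.66 and -0.75. These r were taken across the groups and not within them. A difference between OVXE2 and the other groups can alone give such values. All markers listed for these cells were detected in the DAC. Without the libraries richest in brain neuron transcripts the calls in these lists were 6 of 7 (B cell precursors), 5 of 8 (immature neutrophils), 2 of 7 (T and NK cells), 0 of 5 (endothelium), 0 of 5 (osteoblasts) and 0 of 3 (mast cells). Their part in the Ccr2 and Mgl2 results was not tested.

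C1qa and C1qb are also genes of microglia, and brain transcripts were present in some DAC libraries. None of 5 microglia markers passed in OVXE2 minus OVX (median 0.16), and their sums were 282.1 to 345.0 CPM in Sham, 197.3 to 399.7 in OVX and 268.2 to 438.0 in OVXE2. C1qb followed the sum of resident macrophage genes (r = 0.970) and that of microglia markers (0.856) over the 12 libraries, and its r with the brain neuron sum was -0.53. Sham replicate 2, the library with most brain neuron transcripts and the shallowest, had the lowest C1qa and C1qb of its group. Sham replicate 4, the next richest of that group in brain neuron transcripts (182.5 CPM), had the highest of both genes. Whether brain tissue adds to the C1q counts was not tested.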

How the data were processed

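PolyA RNA of gingiva and DAC was sequenced from 24 libraries. Per the submitters' processing notes the tools were fastp, STAR and DESeq2 on GRCm38 (mm10), and the sources used here give no version for them. The deposited files hold raw counts of read pairs per gene, made by the authors in the layout STAR writes, with 1 column for both strands and 1 for each strand. Column 4 was used here, and reads at several loci or in no gene were left out of library totals. Gene names and exon lengths came from GENCODE M21.

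Counts were tested with edgeR 4.0.16 in R 4.3.3 (quasi-likelihood, robust, TMM scaling, filterByExpr) in 1 fit per tissue of 3 groups, and in 1 fit of both tissues for differences between them. P-values were adjusted by Benjamini-Hochberg over 12680 genes in gingiva, 13617 in the DAC and 14209 in both. The fits were tested on simulated data. The alternatives were DESeq2 1.42.0, limma-voom (limma 3.58.1), RLE scaling, no filter on low counts, a replicate block, fits of the compared groups alone or of all 24 libraries, both strands, each library left out, and subsets of libraries. The counts of gene lists without libraries that stand apart were added after seeing the data.

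Named genes were the 4 members, C1qc, Clec10a, Ccr1 and the chemokines listed as ligands of Ccr2. From each list, up to 3 genes that passed or 2 of smallest p were named, and for likeness the 5 genes of highest r. The members and lists were chosen with earlier results of these data known. List genes that the files do not show by name were not analysed here, and 1 further partner gene is not reported here. The replicate numbers are not stated to pair libraries. P-values set a group difference against the spread between these libraries, which edgeR estimates with information shared across genes. The labels do not say whether a library came from a single animal.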

Additional observations from a re-analysis of the deposited data

Results flagged for a closer look

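Among 36 sets of 4 libraries (the 4 members, C1qc and Clec10a in each tissue and group), 1 held a library far from its group by Dixon's test. Ccr2 in gingiva of OVXE2 mice was 10.4 CPM in replicate 1 and 13.5, 13.6 and 14.0 CPM in the other libraries. Chance alone marks about 5% of such sets.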

How the results depend on the processing

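The number of members that passed kept within 1.5 times its main value in 208 of 216 results that left out a library and in 112 of 120 others. These results are counted per comparison and setting, and a count that stayed at 0 was taken as kept. Most comparisons had a main count of 0, or of all 4 members between tissues, so these totals say little about the DAC calls. In the DAC, OVXE2 minus OVX, 0 of 12 results that left out a library lost the Ccr2 or the Mgl2 call. In the DAC, OVXE2 minus Sham, 7 of 12 results that left out a library lost the Ccr2 call. All 4 members differed between the tissues in every alternative run. In gingiva the count went from 0 to 1 with DESeq2, in OVXE2 minus OVX and in OVXE2 minus Sham, and was 0 to 1 in OVXE2 minus OVX when a library was left out. The gene was Mgl2 each time. In the DAC, OVXE2 minus OVX, the count of 2 became 1 without the 4 libraries richest in brain neuron transcripts and 0 within the higher other-strand set. In OVXE2 minus Sham it became 1 in both of these, 1 without the library rich in nasal gland transcripts and the shallowest (Ccr2 adjusted p = 0.0621), 1 with the replicate block (Ccr2 -0.97, adjusted p = 0.0669), and 1 to 2 when a library was left out. Same-numbered libraries of different groups did not deviate together within a tissue (r from -0.348 to 0.348 in the DAC and from -0.531 to 0.285 in gingiva), so the block reflects a shared number only. The block changed no other call of a member. Between the tissues, over all groups, r was -0.335 to 0.436 for same-numbered libraries and -0.372 to 0.339 for the others. The tests between tissues took all libraries as independent. Over all genes, 290 passed in OVXE2 minus OVX of the DAC, 598 with DESeq2, 122 without the brain-rich libraries and 39 within the higher set. In OVXE2 minus Sham, 143 passed, 340 with DESeq2, 37 and 16. The cause was not tested; these subsets hold fewer libraries.

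Changes that reversed had not passed. Within the higher other-strand set these were, for OVX minus Sham, Mgl2 in gingiva (0.10), C1qa (0.29) and C1qb (0.29) in the DAC, and the tissue difference of Ccr2 (0.075). For OVXE2 minus OVX it was C1qb in the DAC (-0.21, and -0.13 without the nasal-rich and the shallowest library). For OVXE2 minus Sham they were C1qb in gingiva (-0.052) and the DAC (0.085), and the tissue differences of Mgl2 (-0.23) and C1qb (0.15). Leaving out single libraries gave, for OVX minus Sham, -0.338 to 0.033 for Mgl2 in gingiva, -0.238 to 0.073 for C1qa and -0.296 to 0.043 for C1qb in the DAC, and -0.244 to 0.078 for the tissue difference of Ccr2. For OVXE2 minus OVX it gave -0.277 to 0.097 for C1qa and -0.250 to 0.214 for C1qb in the DAC, and -0.265 to 0.097 for the tissue difference of Mgl2. For OVXE2 minus Sham it gave -0.132 to 0.030 for Ccr2 in gingiva and -0.393 to 0.072 for C1qb in the DAC. Mean CPM by library total alone stayed within 1 SD in 24 of 24 sets. Depth limits Mgl2 in gingiva, which had 58 to 250 reads per library.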
